A study of Mus musculus with 12 samples.

Results

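A block of 583 neighbouring transcripts, out of 55419 in the deposited tables, carried opposite shifts in cells with 1 and with 2 altered copies of Chd8. It runs from uc009buv.1 at data row 40554 to uc009cpd.1 at data row 41136, and is called the stretch below. The stretch was chosen by measured values: it covers 2 neighbouring blocks of 100 transcripts whose median log2 fold change in cells without CHD8, relative to the median block, was below -0.25 in both cell types, and the opposite direction in heterozygous cells was seen in the same values. The fold changes of mutant against wild-type cells inside it are therefore given as a description, with no test, and nothing is concluded from their direction. Differentiation from stem cell to neural progenitor, transcript length and overall level were not used in the choice. The files pair no identifier with a gene name, 0 identifiers of the stretch were found in the gene tables used here, and no source used here explains the order of the rows. No gene, chromosome position or sequence can therefore be given for a member.

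The RNA came from mouse embryonic stem cells (ESC) grown in 2i, a medium with inhibitors that hold the cells in naive pluripotency, and from neural progenitor cells (NPC) obtained from ESC by differentiation. The genotypes are wild type (WT), CHD8+/- (HET) and CHD8-/- (KO), each measured in both cell types with 2 libraries per group, 12 in all. The labels name no further allele or agent, and do not give the number of lines behind a genotype or say whether replicates were separate cultures. P-values thus reflect only how far these libraries differ, and that spread may be technical. Neither the loss of Chd8 nor the markers of ESC and NPC were checked, since both need gene names.

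CHD8 is a chromodomain helicase that uses ATP to remodel nucleosomes, is found at the promoters of many active genes and has been linked to Wnt signalling. Loss of 1 copy is a known cause of autism spectrum disorder, which is why its dose is studied in neural precursors. Naive ESC can make every tissue of the embryo, and NPC are dividing cells that give rise to neurons and glia.

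Each library held between 9062447 and 14766212 estimated counts, of which 69865 to 116826, or 0.558% to 1.0%, belonged to the stretch. In ESC the libraries deepened from WT to HET to KO (9062447 and 9840544, 12884157 and 13432274, 14220515 and 14766212), while in NPC WT had the greatest depth (12392099 and 13150215 against 9089955 to 10813941 in the mutants). The part of depth in the results was not tested. Of the 583 members, 115 had no counts in any library, 19.7% against 19.6% of all rows. Testing was possible for 316 (54.2%, against 54.3% of all features). CPM are counts per 1000000, scaled to the library's total over tested transcripts times its TMM factor, a normalization factor. Of the tested members, 200 had a mean of at least 2 CPM over the 12 libraries. These 200 are called the measured members and make up the medians below. The other members are not described by those medians.

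Level and length were not used by the rule. The median level of the measured members was 11.5 CPM, against 10.9 for the 19718 other measured transcripts, and their upper quartile was 46.1 against 31.7 CPM. Their median length was 2541 bases, against 2965. Of the 583 identifiers, 508 begin with uc009 and 75 with uc012. No member with a total of at least 10 counts had counts identical to those of another row, so none was merged. Rows with fewer counts, among them the 115 members without any, were not considered for merging. No test of these differences was made.

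In each library the stretch was set against the mean of the 6 libraries of its cell type, as the median over measured members of log2 CPM. In ESC the HET libraries stood at 0.26 and 0.20, the WT libraries at 0.10 and 0.03, and the KO libraries at -0.19 and -0.18. In NPC the HET libraries stood at 0.23 and 0.20, the WT libraries at 0.10 and -0.02, and the KO libraries at -0.22 and -0.20. Every HET library lay above every WT library, and every WT library above every KO library, in both cell types. The median of all other measured transcripts stayed between -0.002 and 0.056 in the same libraries.

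**Figure D1:**
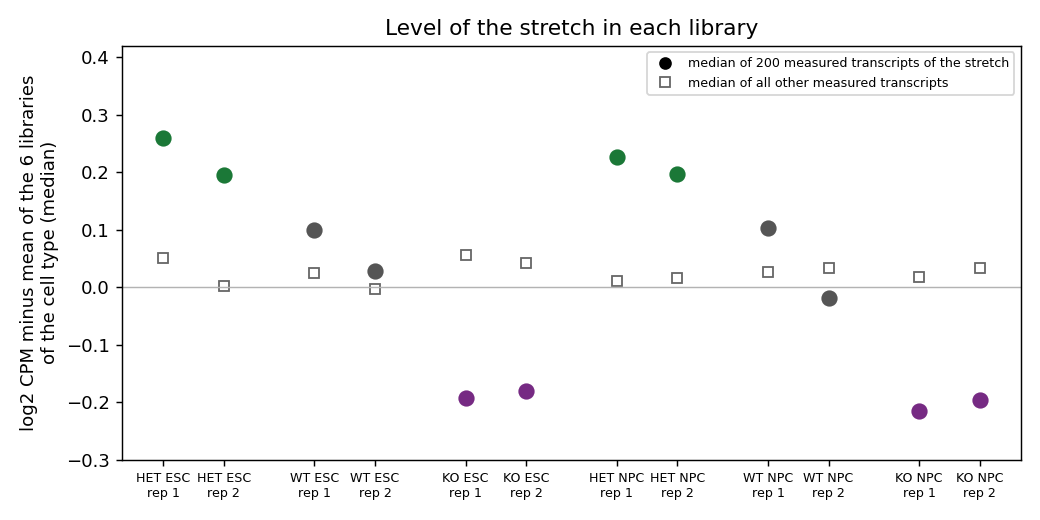
Each filled point is 1 library and gives the median, over the 200 measured members, of log2 CPM minus the mean of the 6 libraries of that cell type (vertical axis), with open squares for the median of all other measured transcripts. The HET libraries sit at 0.20 to 0.26, the WT libraries at -0.02 to 0.10 and the KO libraries at -0.22 to -0.18.

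With the median of the other transcripts taken off, the HET mean exceeded the WT mean by 0.15 ± 0.032 in ESC and by 0.19 ± 0.094 in NPC (log2, SD of the difference between groups of n = 2). The KO mean lay below the WT mean, at -0.29 ± 0.036 in ESC and -0.24 ± 0.090 in NPC. The spread between replicates was widest among the WT NPC libraries (0.08 and -0.05). These differences chose the stretch, so nothing is read from their size against that spread. The same order appeared in the deposited TPM values, which are scaled to transcript length and to a fixed total per library. Summed over all 583 members they were 5780 and 5580 in WT ESC, 6161 and 6089 in HET ESC, and 5066 and 4243 in KO ESC. In NPC the sums were 7466 and 6791 in WT, 7170 and 7728 in HET, and 5808 and 5787 in KO. By this sum KO lay below WT without overlap in both cell types, HET lay above WT in ESC, and HET and WT overlapped in NPC. As a share of all counts, the stretch held 0.8815% and 0.7965% in HET ESC, against 0.8505% and 0.8231% in WT ESC. By this share HET and WT overlapped in both cell types, and KO lay below WT in both without overlap. The top row alone took from 10.1% (WT NPC replicate 2) to 27.4% (KO ESC replicate 2) of a library's counts, and it was kept in the share.

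Because this is bulk RNA, fewer cells of a type and less RNA per cell cannot be told apart in any of these values. The HET and KO comparisons of a cell type share its WT libraries, so they are not independent of each other.

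In the model fitted to all 30021 tested transcripts, the median log2 fold change of the measured members in HET against WT was 0.14 in ESC and 0.18 in NPC, where the other transcripts had 0.007 and -0.016. On the linear scale these medians are 1.1-fold and 1.13-fold. In KO against WT the median was -0.33 in ESC and -0.29 in NPC, where the others had 0.03 and -0.01, and the linear values are 0.796 and 0.818 of WT. The rule set a size limit for KO alone, so the sizes of the HET and KO medians are not compared. The difference between HET and KO, in which the WT libraries cancel, had a median of 0.38 in ESC and 0.44 in NPC (1.30-fold and 1.35-fold), and 74.5% and 84.0% of the measured members were higher in HET than in KO, against 47.4% and 49.1% of the others. Single libraries moved some of these medians by more than 1.5 times. HET against WT in ESC became 0.08 without HET ESC replicate 1, HET against WT in NPC became 0.10 without WT NPC replicate 2, and KO against WT in ESC became -0.21 without WT ESC replicate 1. HET against WT in NPC became 0.12, a change of just under 1.5 times, without HET NPC replicate 2.

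The shift was a move of the middle of the distribution, and single members scattered widely around it. In HET ESC the quartiles were -0.22 and 0.45, with 120 of 200 members above WT (60.0%, against 50.7% of the others). In HET NPC they were -0.09 and 0.39, with 138 above WT (69.0%, against 48.1%). In KO ESC the quartiles were -0.70 and 0.16, with 134 below WT (67.0%, against 47.7%). In KO NPC they were -0.70 and 0.08, with 144 below WT (72.0%, against 50.9%). The widths between quartiles, 0.67, 0.48, 0.87 and 0.78 in that order, were near those of the other transcripts, 0.63, 0.60, 0.82 and 0.76. For comparison, the log2 ratio of the replicates of a group had a width between quartiles of 0.52 to 0.97 over the same members, the widest in WT ESC. Changes of at least 2-fold went both ways. Of the 200 members, 17 were up and 18 down in HET ESC, and 18 up and 25 down in KO ESC. In NPC, 10 were up and 9 down in HET, and 5 up and 29 down in KO. Of the 19718 others, 1361 were up and 1206 down in HET ESC, and 1940 up and 1544 down in KO ESC. In NPC, 1047 of the others were up and 1227 down in HET, and 1347 up and 1744 down in KO. Changes of this size were thus not particular to the stretch. In KO NPC they were more one-sided among members (29 down and 5 up) than among the others (1744 and 1347). The rule used that comparison, so nothing is read from this.

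**Figure D2:**
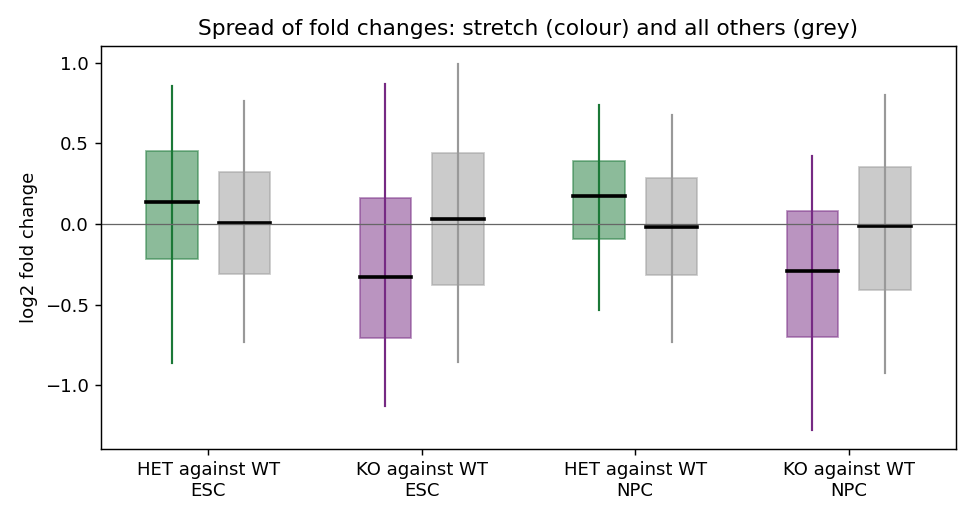
For each mutant against WT, boxes span the quartiles of the log2 fold change, lines the 10th to 90th percentiles and black bars the median, for the 200 measured members (colour) and the 19718 other measured transcripts (grey). The medians of the stretch lie at 0.14 and 0.18 in HET and at -0.33 and -0.29 in KO, while the boxes overlap those of the other transcripts.

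Single transcripts seldom passed a test on their own. edgeR (quasi-likelihood test, adjusted p under 0.05) called 3 of the 316 tested members in KO against WT in ESC, where 1.21% of all tested transcripts were called. It called 0 in KO against WT in NPC (0.213% of all), 0 in HET against WT in ESC (0.0333%) and 0 in HET against WT in NPC (0.00999%). An unadjusted p under 0.05 was reached by 57 members in KO ESC (18.0%, where 14.3% of all tested transcripts reached it), 44 in KO NPC (13.9%, against 12.7%), 34 in HET ESC (10.8%, against 8.67%) and 25 in HET NPC (7.91%, against 7.9%). DESeq2, which gave an adjusted p for 263 or 271 members in these comparisons, called 41 in KO ESC (15.1%, against 10.6% of all), 28 in KO NPC (10.6%, against 8.82%), 15 in HET ESC (5.54%, against 4.07%) and 13 in HET NPC (4.80%, against 3.7%). Of 231 members, limma on TPM called 0 in KO ESC (1.15% of all), 10 in KO NPC (4.33%, against 1.71%), 0 in HET ESC (0.067% of all) and 0 in HET NPC (0.0491% of all). The rule used these comparisons, so the counts are given for completeness. The 3 members that edgeR called in KO ESC, none of them called by limma, named after their values were seen, were uc009ccn.2, uc009byf.1 and uc009chc.1. uc009ccn.2 had 37.5 and 41.4 CPM in WT ESC, 37.3 and 39.5 in HET ESC and 21.6 and 22.8 in KO ESC. Its KO libraries thus lay below all others in ESC, while HET and WT overlapped. uc009byf.1 was low in all ESC libraries, at 1.78 and 1.03 CPM in WT and 0.154 and 0.174 in KO. uc009chc.1 went against the stretch, with 4.74 and 3.83 CPM in WT ESC and 14.5 and 10.3 in KO ESC.

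Members that followed the opposite shift in full were a minority. Group means were ordered HET above WT above KO in both cell types in 36 of the 200 measured members, 18.0%, where 3.33% of all measured transcripts were so ordered; the rule used these values, so nothing is read from this share. In ESC alone the signs were HET above and KO below WT in 62 members (31.0%, against 13.6% of the others), and in NPC alone in 87 (43.5%, against 13.8%). The reverse signs were found in 8 members in ESC and 5 in NPC (4.0% and 2.5%, against 15% and 14.7% of the others), and in 1 member in both. The cell types share no library, but both entered the choice of the stretch. Among the measured members, 97 were above WT in HET in both cell types and 39 below in both (48.5% and 19.5%, against 29.6% and 30.6% of the others). For KO, 100 were below WT in both and 22 above in both (50% and 11.0%, against 29.9% and 31.1%).

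A stricter count asked that no library of one group overlap the other. Every HET library lay above every WT library for 60 members in ESC (30.0%, where 20.1% of all measured transcripts did) and for 65 in NPC (32.5%, against 21.2%). The opposite, HET below WT, held for 28 in ESC (14.0%, against 18.6%) and 25 in NPC (12.5%, against 22.7%). Every KO library lay below every WT library for 81 members in ESC (40.5%, against 22.6%) and 92 in NPC (46.0%, against 27.2%). KO lay above WT for 25 in ESC (12.5%, against 25.3%) and 30 in NPC (15%, against 26.5%). The full order of HET, WT and KO without any overlap was met by 17 members in ESC (8.5%, against 1.61%), 18 in NPC (9.0%, against 1.77%) and 6 in both (3.0%, against 0.156%). The reverse order was met by 0 members in ESC, NPC or both, where 1.35%, 1.48% and 0.0552% of all measured transcripts met it.

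The most abundant members with the full order were uc009chi.1 and uc009bwn.1. uc009chi.1 (2766 bases, row 40920) had 243 and 227 CPM in HET ESC, 195 and 181 in WT ESC and 167 and 148 in KO ESC. In NPC it had 123 and 134 CPM in HET, 102 and 92.2 in WT and 83.7 and 86.1 in KO. Its log2 fold changes were 0.32 and 0.40 in HET and -0.25 and -0.19 in KO, for ESC and NPC, each with a standard error of 0.11, so it lay above the medians of the stretch in HET and nearer to 0 than them in KO. uc009bwn.1 (2134 bases, row 40603) had 171 and 168 CPM in HET ESC, 125 and 120 in WT ESC and 77.6 and 93.8 in KO ESC. In NPC it had 127 and 139 CPM in HET, 95.2 and 80.2 in WT and 76.4 and 64.7 in KO. Its log2 fold changes, 0.47 and 0.60 in HET and -0.52 and -0.31 in KO (standard error 0.14), exceeded the medians of the stretch in all 4 comparisons. That their libraries do not overlap follows from how they were picked.

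**Figure D3:**
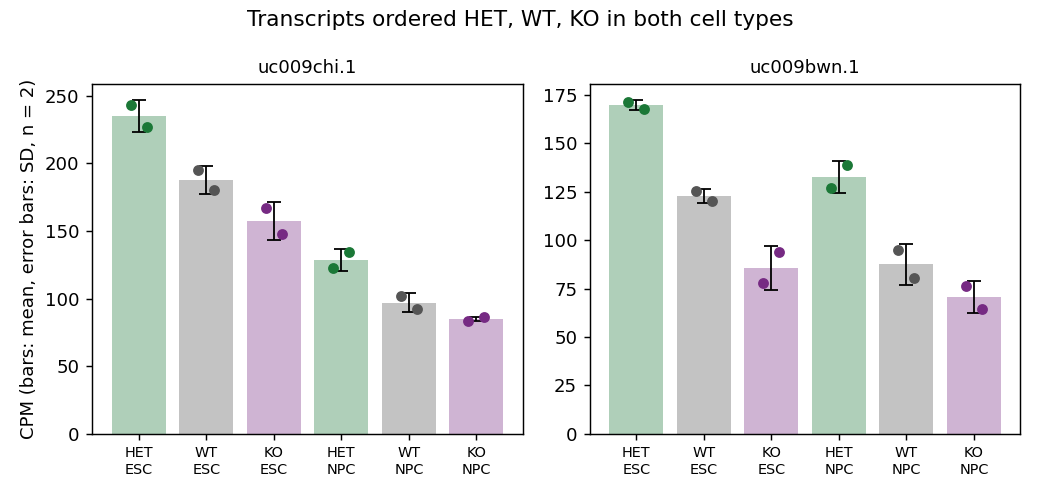
CPM of uc009chi.1 and uc009bwn.1 by group, with bars at the mean, error bars for the SD (n = 2) and a point for each library. In both cell types the HET points lie highest and the KO points lowest, from 243 to 148 CPM for uc009chi.1 in ESC.

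Other members moved far more than the stretch, in either direction. The identifiers in this paragraph had the largest fold changes among members with a mean of at least 5 CPM across the libraries being compared whose groups were separate, which fixes that their libraries do not overlap. Their estimates are for single transcripts, between which kallisto can move reads, and several vary widely between replicates. In HET ESC, uc009bxm.1 had 23.2 and 12.5 CPM against 2.73 and 2.58 in WT ESC, but 20.6 and 0 in KO ESC, and it was lower in HET than WT in NPC (11.4 and 14.9 against 51.9 and 19.2). uc009ccl.1 was higher than WT in both mutants in ESC, with 6.17 and 1.65 CPM in WT, 13.0 and 15.8 in HET and 9.15 and 13.7 in KO. It therefore shows the rise of the stretch in HET but not its fall in KO. On the lower side, uc012emf.1 had 5.57 and 8.68 CPM in WT ESC, 3.01 and 3.10 in HET ESC and 2.54 and 2.17 in KO ESC, and uc009bzy.1 had 7.0 and 12.5 in WT, 3.78 and 4.61 in HET and 2.85 and 2.96 in KO ESC. Both were lower in HET as well as in KO ESC. uc009chu.2 fell furthest in KO ESC, with 8.90 and 15.8 CPM in WT and 3.69 and 2.70 in KO. uc009ciz.1 rose furthest there, with 0 and 5.89 CPM in WT and 23.1 and 7.22 in KO.

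In NPC, uc009cei.1 had 13.7 and 7.35 CPM in WT, 31.9 and 47.3 in HET and 55.3 and 51.0 in KO, so it was higher in both mutants. uc009cgy.2 had no counts in either WT NPC library, 21.0 and 29.9 CPM in HET and 19.4 and 6.68 in KO. With 3 counts allowed in each WT library, its mean was at least 124-fold higher in HET NPC and at least 63.7-fold higher in KO NPC. This bound allows for counting alone and not for the spread between replicates, and edgeR called neither change. The ESC values of uc009cgy.2 were 0 and 40.4 CPM in HET, 0 in both KO libraries and 10.1 and 8.89 in WT. Its HET ESC pair shows how far an estimate for 1 transcript can swing between replicates. uc009cfq.1 was lower in both mutants, with 7.13 and 18.8 CPM in WT NPC, 4.90 and 2.17 in HET and 0.798 and 2.17 in KO. uc009chm.1 had 7.90 and 12.5 CPM in WT NPC and 0 and 5.97 in HET, and uc009cou.1 had 24.1 and 42.8 in WT NPC, 17.1 and 9.41 in HET and 3.99 and 6.68 in KO. In these largest single changes both mutants often lie on 1 side of WT, unlike the middle of the stretch. They were picked for their distance from WT libraries that HET and KO share. That favours both mutants on 1 side, so nothing is concluded from this contrast.

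Members of 2 to 5 CPM (53) had medians of 0.06 and 0.08 in HET ESC and HET NPC and -0.49 and -0.39 in KO ESC and KO NPC. Those of 5 to 20 CPM (74) had 0.13, 0.18, -0.31 and -0.27, and those of at least 20 CPM (73), which carry the most counts, had 0.17, 0.20, -0.25 and -0.25. In that order the HET rise was larger, and the KO fall smaller, at higher levels. Medians of the other transcripts also rose over these tiers in HET ESC (-0.04, 0.006 and 0.02) and KO ESC (-0.03, 0.03 and 0.06). The same held in KO NPC (-0.07, -0.02 and 0.02), and in HET NPC they were -0.06, -0.005 and -0.01. A trend with level was thus not particular to the stretch, and whether the tiers differ was not tested. By length, members under 1000 bases (14) had 0.31, 0.32, -0.28 and -0.01, those of 1000 to 2000 (56) had 0.05, 0.21, -0.43 and -0.19, those of 2000 to 4000 (84) had 0.14, 0.12, -0.31 and -0.36, and longer ones (46) had 0.06, 0.11, -0.33 and -0.21. Other transcripts in the same tiers had medians between -0.07 and 0.19, and in some tiers this matters for the comparison. Others of 1000 to 2000 bases had 0.05 in HET ESC, so members of that length were not above them there. Others under 1000 bases had 0.19 in KO NPC, against -0.01 in the 14 members.

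Within the stretch the shift was spread over the rows. Of 8 blocks of 25 measured members, 7 had a median above 0 in both HET comparisons and below 0 in both KO comparisons, relative to the median block. The exception, rows 40638 to 40711, had -0.04 in HET ESC, beside 0.16 in HET NPC, -0.48 in KO ESC and -0.29 in KO NPC. The first 25 members, rows 40554 to 40637, had the largest HET ESC value, 0.39, and the KO ESC value nearest to 0, -0.03. All blocks of 50 within the stretch kept the 4 signs, with HET at 0.03 to 0.24 and KO at -0.45 to -0.19.

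The limits of the stretch are those of the threshold, and the shift went on beyond them. In blocks of 100 measured transcripts, relative to the median block, the stretch is blocks 150 and 151. Their KO ESC medians were -0.38 and -0.34, and their KO NPC medians -0.25 (before rounding, below the limit) and -0.29. The blocks just outside had -0.20 in KO ESC on both sides, and -0.23 before and -0.17 after in KO NPC, so they missed 0.25. In HET the blocks inside had 0.07 and 0.16 in ESC and 0.22 and 0.20 in NPC. The blocks outside had 0.09 and 0.246 in ESC and 0.21 and 0.24 in NPC, so in HET the neighbours were as high as the stretch.

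The neighbouring rows moved the same way over a run of 9 blocks, 148 to 156, from row 39943 to row 42875. All 9 blocks stood above 0 in both HET comparisons and below 0 in both KO comparisons. The run was delimited by these signs, so they, and the comparison with blocks outside it, are description only. Outside this run 5 of 191 blocks (2.62%) had the same 4 signs, and no 2 of them were neighbours. The 200 measured transcripts of the run before the stretch had medians of 0.13 and 0.14 in HET ESC and HET NPC and of -0.17 and -0.27 in KO ESC and KO NPC. The 500 after it had 0.18, 0.21, -0.15 and -0.15. The 200 members had 0.14, 0.18, -0.33 and -0.29, so the stretch was lower than both flanks in KO ESC, a value that helped to choose it, and level with the earlier flank in KO NPC. These differences were not tested. With blocks moved along by 25, 50 or 75 transcripts, the run had 9 or 10 blocks. In blocks of 50 it had 2 exceptions, both after the stretch: rows 41703 to 41825, at 0.03 in KO NPC, and rows 41963 to 42269, where the KO medians were 0.02 in ESC and 0.04 in NPC.

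The flanks showed the order of the genotypes library by library, with 1 exception. The signs that delimited the run came from these same libraries, so nothing is concluded from this order. In the 500 transcripts after the stretch, HET ESC libraries stood at 0.16 and 0.17 relative to transcripts outside the run, WT ESC at -0.02 and 0.01 and KO ESC at -0.17 and -0.19. HET NPC libraries stood at 0.23 and 0.19, WT NPC at 0.02 and -0.10 and KO NPC at -0.19 and -0.20. In the 200 transcripts before the stretch, HET ESC stood at 0.116 and 0.200, WT ESC at -0.056 and 0.117 and KO ESC at -0.23 and -0.16, so HET ESC replicate 1 and WT ESC replicate 2 stood level. HET NPC was at 0.22 and 0.20 there, WT NPC at 0.15 and -0.06 and KO NPC at -0.26 and -0.23.

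**Figure D4:**
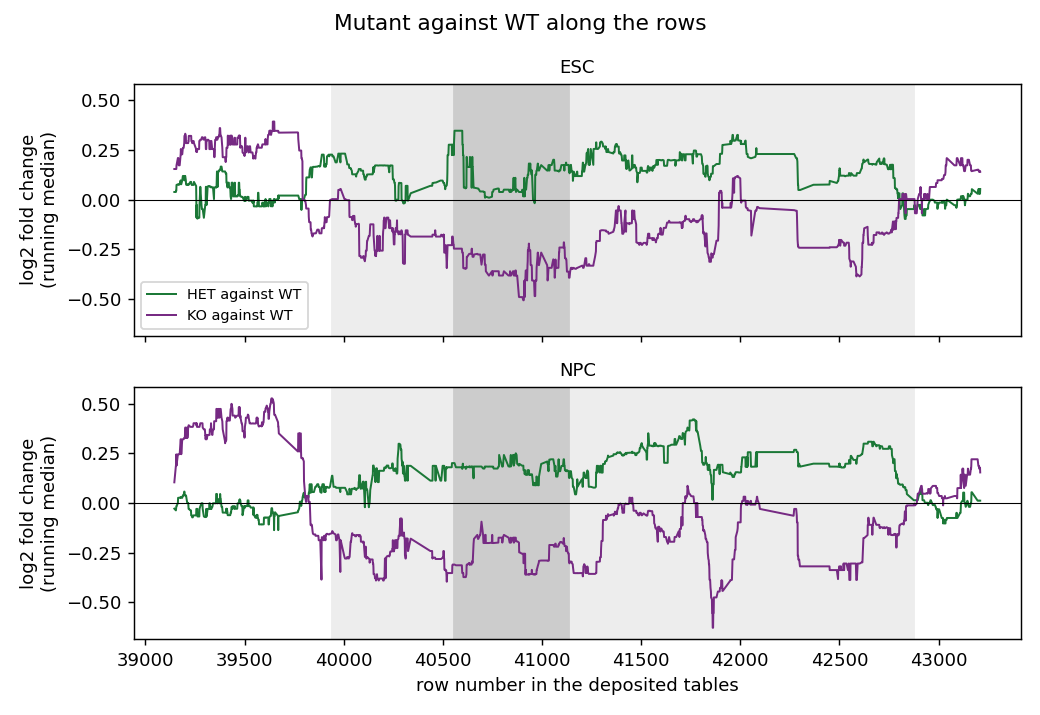
Running median of the log2 fold change over 51 neighbouring measured transcripts (vertical axis) against the row number in the deposited tables, for HET and KO against WT in ESC (top) and NPC (bottom). Dark grey marks the stretch, rows 40554 to 41136, and light grey the run of 9 blocks, rows 39943 to 42875; the HET line lies mostly above and the KO line mostly below 0 throughout, and KO lies above 0 just before row 39806.

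The limits of the shift were also sought row by row, by a search that returns a dividing row for any profile and so does not measure how sharp a limit is. The mean of the KO fold changes in ESC and NPC was best divided between rows 39806 and 39810, where the median went from 0.35 over the transcripts before to -0.21 over those after (search over 200 measured transcripts on each side of the first block of the run). The 50 transcripts just before, rows 39602 to 39810, were higher in KO, by 0.37 in ESC and 0.47 in NPC, but near 0 in HET (0.005 and -0.07). The next 50, rows 39811 to 39942, stood at -0.19 and -0.18 in KO and at 0.17 and 0.12 in HET. The median of KO thus changed sign between these sets of 50, of which the second lies directly before the first block of the run. HET was best divided close by, between rows 39850 and 39857, where its median went from -0.01 to 0.18. At the far end HET was best divided between rows 42785 and 42786 (0.21 before and 0.00 after) and KO between rows 42807 and 42817 (-0.17 before and 0.07 after). The HET and KO divisions thus lay close together at each end. Near that end the KO ESC medians of 50 transcripts changed by steps, from -0.25 (rows 42571 to 42747) to -0.11 (rows 42750 to 42875), 0.004 (rows 42879 to 43029) and 0.11 (rows 43032 to 43210). A search over 300 transcripts on each side placed all of these divisions at the same rows.

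Differentiation, which played no part in the choice, changed members of the stretch in both directions. edgeR (quasi-likelihood test, adjusted p under 0.05) called 48 of 316 tested members in NPC against ESC in WT cells, 15.2%, where 12.2% of all tested transcripts were called. Of these 24 were higher in NPC (7.59%, against 6.83% of all) and 24 lower (7.59%, against 5.33%). In HET cells 47 members were called (14.9%, against 11.5%), 24 higher (7.59%, against 6.3%) and 23 lower (7.28%, against 5.16%). In KO cells 46 were called (14.6%, against 13.0%), 24 higher (7.59%, against 6.59%) and 22 lower (6.96%, against 6.42%). The shares in the stretch were near those over all transcripts and the differences between genotypes were not tested. DESeq2 called 89 members in WT (28.9% of those with an adjusted p, against 22.2% of all), 84 in HET (28.1%, against 23.2%) and 76 in KO (24.1%, against 23.1%). On TPM, limma called 65 of 231 members in WT (28.1%, against 26.8%), 55 in HET (23.8%, against 22.6%) and 51 in KO (22.1%, against 23.9%). The edgeR counts fell by more than 1.5 times without single libraries of the compared groups, to 21 and 23 in WT without WT NPC replicate 1 or 2, to between 25 and 30 in HET without any 1 of the 4 HET libraries, and to between 24 and 29 in KO without any 1 of the 4 KO libraries.

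**Figure D5:**
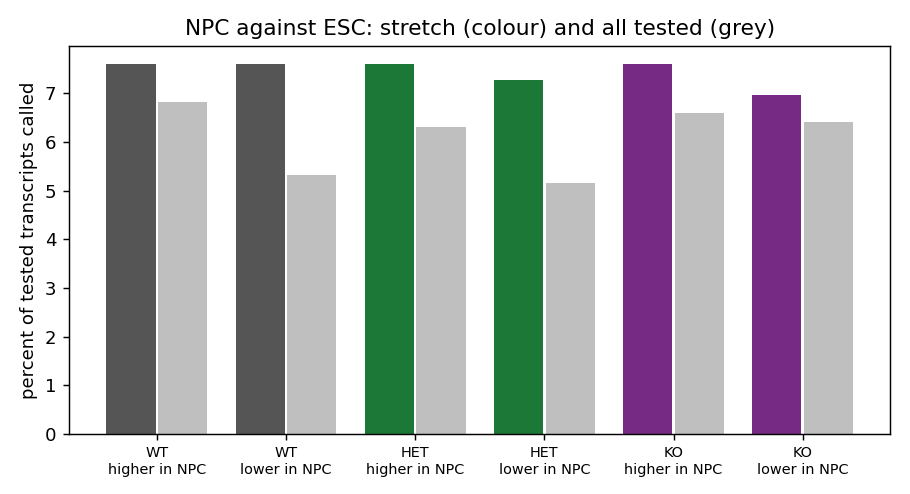
Percent of tested transcripts called in NPC against ESC (edgeR, adjusted p under 0.05; vertical axis) in each genotype and direction, for the 316 tested members (colour) and all 30021 tested transcripts (grey). The members stand at 6.96% to 7.59% and all transcripts at 5.16% to 6.83%.

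In all 3 genotypes 18 members were called higher in NPC and 10 lower, and none changed direction. Together they were 8.86% of the tested members, against 6.46% of all tested transcripts, and 66 members (20.9%) were called in at least 1 genotype, against 19.4% of all tested transcripts. The 137 measured members called in no genotype had medians of 0.15 and 0.17 in HET ESC and HET NPC and of -0.36 and -0.29 in KO ESC and KO NPC. These are most of the 200 measured members, so their medians are close to those of the whole stretch by construction. The 9 measured members that were lower in NPC in all genotypes had 0.33, 0.40, -0.25 and -0.25. The 18 that were higher had -0.07, 0.17, -0.25 and -0.05, and these groups are small.

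The members named next had the largest changes among called members with a mean of at least 5 CPM and no overlap between the compared libraries. Those that rose went from low levels in ESC to much higher ones in NPC, and those that fell kept counts in NPC. Larger fitted changes were found outside this rule and were not called, such as those of uc009cgy.2 (-9.78 in WT and 10.2 in KO). uc009bxz.1 (row 40649) had 1.07 and 0.517 CPM in WT ESC and 22.0 and 16.1 in WT NPC, with a fitted log2 change of 4.58 (SE 0.54, edgeR adjusted p = 0.00188). It had 0 and 0.084 CPM in HET ESC and 17.4 and 25.8 in HET NPC (edgeR adjusted p = 0.000521), and 0.308 and 0.609 in KO ESC and 24.2 and 24.9 in KO NPC. The NPC level was thus reached in all genotypes, and the groups of each genotype did not overlap. Its next row, uc012ely.1, behaved alike, with 0 and 0.335 CPM in HET ESC and 12.1 and 13.3 in HET NPC (edgeR adjusted p = 0.017), and 0 and 0.435 in KO ESC and 13.0 and 14.9 in KO NPC (edgeR adjusted p = 0.016). No source used here says whether these neighbouring rows are isoforms that share reads. The calls of uc012ely.1 ended without HET ESC replicate 1 or HET NPC replicate 2 in HET cells, and without either KO NPC library in KO cells (highest edgeR adjusted p of 0.0635 and 0.0581). uc009cei.1, described above for its rise in both mutants in NPC, had 0.385 and 0.609 CPM in KO ESC and 55.3 and 51.0 in KO NPC, with a fitted log2 change of 6.72 (SE 0.594, edgeR adjusted p = 0.000593).

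uc009cou.1 rose in WT cells, from 2.02 and 0 CPM in ESC to 24.1 and 42.8 in NPC, with a fitted log2 change of 5.07 (SE 1.19, edgeR adjusted p = 0.0304). That call ended with the replicate number as a block and without WT NPC replicate 1, WT NPC replicate 2, HET NPC replicate 1 or KO NPC replicate 2 (highest edgeR adjusted p = 0.131). uc009ckc.1 fell on differentiation in every genotype. It had 139 and 297 CPM in WT ESC and 8.25 and 10.3 in WT NPC, with a fitted log2 change of -4.55 (SE 0.707, edgeR adjusted p = 0.00585). The log2 fold changes were -5.32 in HET (SE 0.758, edgeR adjusted p = 0.0041) and -5.09 in KO (SE 0.752, edgeR adjusted p = 0.00435). The WT call ended without either WT NPC library (highest edgeR adjusted p = 0.054). Its replicates differed by about as much in each ESC genotype (82.3 and 204 CPM in HET, 70.1 and 171 in KO), with replicate 2 the higher.

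uc012enf.1 also fell, from 13.7 and 14.9 CPM in HET ESC to 2.35 and 1.27 in HET NPC, with a fitted log2 change of -2.98 (SE 0.365, edgeR adjusted p = 0.00201). In WT it went from 5.46 and 5.89 to 1.12 and 0.868 CPM. uc009clp.2 fell from 16.2 and 38.9 to 4.82 and 2.94 CPM in WT (log2 fold change -2.83, SE 0.649, edgeR adjusted p = 0.0279) and from 13.1 and 23.7 to 0.698 and 2.17 in KO (log2 fold change -3.66, SE 0.696, edgeR adjusted p = 0.0124). The WT call ended with the replicate number as a block and without WT ESC replicate 2 or either WT NPC library (highest edgeR adjusted p = 0.174). The KO call ended with the block and without KO ESC replicate 2 or KO NPC replicate 1 (highest edgeR adjusted p = 0.0827). The ordered transcript uc009chi.1, chosen for its genotype pattern, was lower in NPC than in ESC in WT (log2 fold change -0.95, SE 0.11, edgeR adjusted p = 0.00165), HET (-0.87, edgeR adjusted p = 0.00237) and KO (-0.89, edgeR adjusted p = 0.00196). Differences between the genotypes in this change were not tested.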

How the data were processed

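The authors deposited, per the file headers, an estimated count (expected count) and a TPM value per transcript for each of 12 libraries; length and effective length stand beside them. Per the labels' protocols the libraries are stranded SMARTer libraries of total RNA depleted of ribosomal RNA, and the submitters' processing notes list cutadapt 1.16, kallisto and mm9 (transcript set and kallisto version not given in the sources used here). Counts were rounded. Rows with equal counts in all libraries (to 2 decimals, total at least 10) were merged, 252 rows in 99 sets, none in the stretch. The tests used edgeR 4.0.16 (R 4.3.3): low transcripts were removed with filterByExpr at a minimum count of 10, TMM factors were computed, and a robust quasi-likelihood model was fitted to the 6 groups together, with two-sided tests and Benjamini-Hochberg adjustment over 30021 transcripts. The fit was tried on simulated counts with changes in NPC against ESC in WT alone. Comparisons of a mutant with WT, and shifts as small as those of the stretch, were not simulated. Standard errors are the log2 fold change over the root of F. Log2 CPM used a prior count of 2. Alternatives were DESeq2 1.42.0, limma 3.58.1 on log2(TPM + 1) for rows with a mean TPM of at least 1, other scaling, filters and merging, a replicate block and leaving out each library. The members and lists were chosen with earlier results of these data known. Named transcripts follow 1 rule: no overlap between the compared libraries, mean CPM at least 5 over those libraries, at most 2 per direction and comparison (for differentiation also adjusted p under 0.05), plus the 2 most abundant members in full genotype order. Rows were divided into blocks of 100, 50 or 25 measured transcripts, and block limits were also moved by 25, 50 and 75, a choice made after seeing the data, as was the minimum total for merging. The planned checks of cell type markers need gene names and were not run.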

Additional observations from a re-analysis of the deposited data

How the results depend on the processing

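In all 21 alternatives, the medians of the measured members kept their direction in each of the 4 comparisons of a mutant with WT. The stretch was chosen by fold changes from these same libraries, so nothing is concluded from the kept directions. Relative to other transcripts the medians ran from 0.094 to 0.172 (HET) and -0.367 to -0.232 (KO) in ESC, and 0.115 to 0.247 (HET) and -0.309 to -0.231 (KO) in NPC. With library totals alone the median became 0.033 in HET ESC and -0.51 in KO ESC, where other transcripts stood at -0.09 and -0.14. With limma on TPM it was 0.10 in HET ESC, then 0.035 (HET) and -0.42 (KO) in NPC, where others stood at -0.02, -0.10 and -0.17. In KO ESC it was -0.267 at a mean CPM of at least 1 and -0.261 at 10, and in HET ESC 0.20 at 10. Leaving out 1 library gave 0.078 to 0.18 in HET ESC, 0.10 to 0.21 in HET NPC, -0.34 to -0.21 in KO ESC and -0.32 to -0.23 in NPC of that genotype. The share of members ordered HET above WT above KO ran from 13.9% to 23.1%; the share over all transcripts was not recomputed. For differentiation DESeq2 called 89, 84 and 76 members in WT, HET and KO (22.2%, 23.2% and 23.1% of all), limma 65, 55 and 51 of 231 (26.8%, 22.6% and 23.9% of all), and leaving out 1 library gave 21 to 45, 25 to 50 and 24 to 46. With the replicate block the counts were 30, 30 and 29. Between genotypes, the deviations of libraries with the same number had r = 0.03 to 0.19 in ESC and -0.20 to -0.02 in NPC. The number was not taken as a pairing, and whether replicates of the same number share an effect in ESC was not tested. With 2 libraries per group, edgeR called 3 of the 316 tested members in KO against WT in ESC and 0 in the other comparisons of a mutant with WT. Whether shifts as small as the medians of the stretch can be detected for 1 transcript was not tested.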
